A study of Danio rerio with 24 samples.

Results

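The apolipoprotein E and C genes of the zebrafish were followed here through late larval life in the intestine. They comprise apoea (ENSDARG00000102004) and apoeb (ENSDARG00000040295), a pair of apolipoprotein E paralogs, and apoc1 (ENSDARG00000092170) and apoc2 (ENSDARG00000092155), the genes of apolipoproteins C-I and C-II. They were taken by symbol, with no threshold on their values, and were 4 of the 30263 genes of the expression table. They and the gene lists below were chosen with earlier results of these data known. Ranks and shares of all genes given beside them are therefore descriptions. The samples were intestines dissected from larvae of strain AB at 5, 7 and 9 days post fertilization (dpf). All carried the genotype wild type with the transgene tg(cldn15la:GFP), a green fluorescent reporter on an intestinal promoter, and all were raised at 28.5 °C under 14 hours of light and 10 hours of dark on a dry diet with rotifers and Artemia. Each RNA library came from 10 pooled intestines, as total RNA without ribosomal RNA, and each age had 3 libraries. The labels do not say from which clutches the pools were drawn, so p-values measure only the spread between these libraries, which may be technical.

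Apolipoproteins are the proteins that coat lipoprotein particles, in which fat and cholesterol travel through the blood. Apolipoprotein E is the ligand by which receptors of the LDL receptor family take up particles and their remnants. Apolipoprotein C-II is the cofactor that lipoprotein lipase needs to free fatty acids from particles, and apolipoprotein C-I, in mammals, restrains that lipase and remnant uptake. The intestine packs dietary fat into chylomicrons, or their fish counterparts, and the layer around the yolk makes such particles too before the larva lives on food.

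Values are read counts per gene that the authors divided by 1 size factor per library, called normalized read counts below. The libraries held 7014333 to 14327144 reads in named genes, and the fewest reads behind any value of the 4 genes were 663, for apoc1 in library 2 at 5 dpf. Changes were tested with limma after a log2(value + 1) transform. The 3 ages were fitted together, p-values were adjusted by Benjamini-Hochberg over the 24298 genes tested, and an adjusted p under 0.05 counted as passing. Fold changes are on that log2(value + 1) scale. All 15 enterocyte markers were among the genes tested. So were most markers of other tissues, so this alone does not check the tissue label. The brush border gene vil1 averaged 13993 ± 3748, 21741 ± 5525 and 28467 ± 6710 (SD, n = 3 each) at 5, 7 and 9 dpf.

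All 4 genes were higher at 9 dpf than at 5 dpf, apoc1 by 17.2-fold, apoeb by 7.86-fold, apoea by 4.85-fold and apoc2 by 3.23-fold, and all 4 passed the test. The background was 12.6%, the share of all tested genes that passed with a higher value at 9 dpf. Ordered by log2 change among the 24298 genes, apoc1 stood 9th, apoeb 35th, apoea 78th and apoc2 207th. For each gene every 9 dpf library lay above every 5 dpf library, which held for 20.5% of all genes. Between 5 and 7 dpf the estimated changes of the genes were unequal, while between 7 and 9 dpf they were nearly equal.

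**Figure D1:**
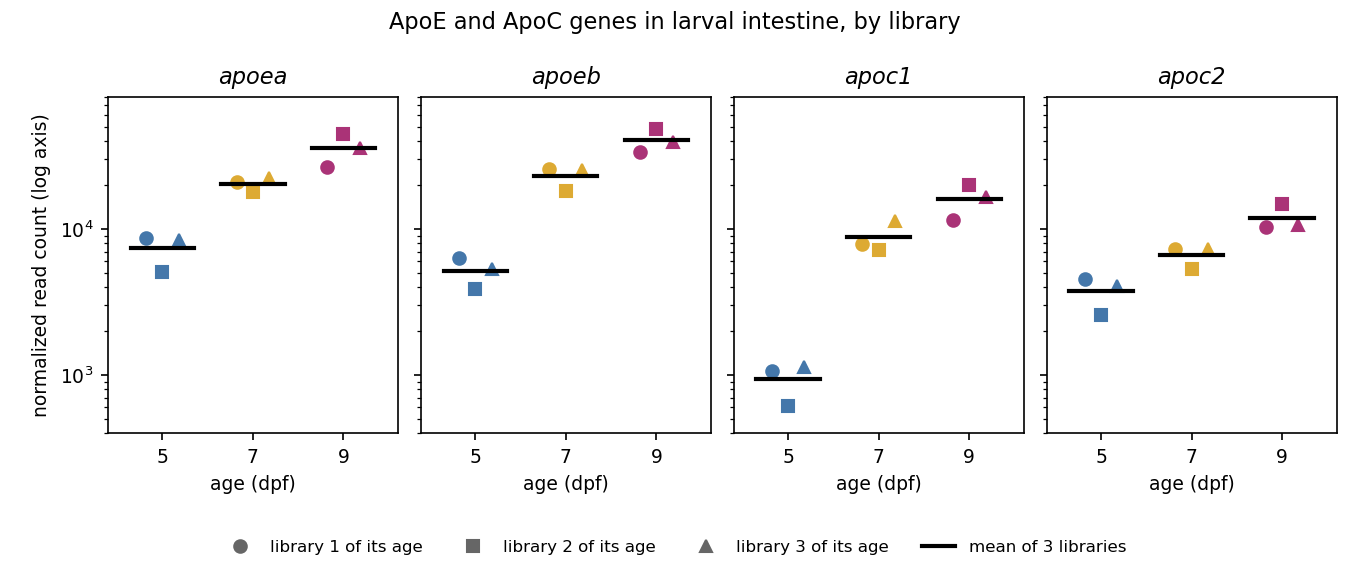
Normalized read count of apoea, apoeb, apoc1 and apoc2 (vertical, log axis) by age in dpf (horizontal). Each point is 1 library, its shape the library's number within its age, and the bar is the mean of 3 libraries; no panel has ages that overlap, and apoc1 lies between 618 and 1135 at 5 dpf and between 11584 and 19922 at 9 dpf.

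The ligand genes come first. apoea had 8662, 5087 and 8369 normalized read counts in the 3 libraries at 5 dpf, 21032, 17967 and 22256 at 7 dpf, and 26698, 44305 and 35566 at 9 dpf. Library 2 was the lowest at 5 and at 7 dpf and the highest at 9 dpf, and no value of one age reached into the range of another. The means were 7373 ± 1985, 20419 ± 2209 and 35523 ± 8804 (SD, n = 3 each). At 9 against 5 dpf apoea rose by 2.28 on the log2 scale (SE 0.32, limma adjusted p = 4.70e-05), and at 7 against 5 dpf by 1.50, or 2.84-fold (adjusted p = 0.00858). The second of these calls was lost without library 1 at 7 dpf, although the log2 change stayed at 1.48 (limma adjusted p = 0.0658). In that fit 315 genes passed at 7 against 5 dpf, and 985 passed with all libraries. At 9 against 7 dpf the estimate was 0.77, or 1.71-fold, and did not pass (adjusted p = 0.234).

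apoeb had 6285, 3905 and 5354 at 5 dpf, 25670, 18099 and 25267 at 7 dpf, and 33431, 48423 and 39413 at 9 dpf. As for apoea, library 2 was lowest at the first 2 ages and highest at the last, and the ages did not overlap. The means were 5182 ± 1199, 23012 ± 4259 and 40422 ± 7547 (SD, n = 3 each). apoeb rose by 2.97 (SE 0.31, limma adjusted p = 1.63e-06) at 9 against 5 dpf and by 2.16, or 4.47-fold (adjusted p = 0.000288), at 7 against 5 dpf. Its estimate at 9 against 7 dpf was 0.81, or 1.76-fold, and did not pass (adjusted p = 0.195). Its later step was smaller than its earlier one by 1.35 on the log2 scale, a difference that did not pass (adjusted p = 0.410, 95% interval -2.47 to -0.22). Reads that fit both apolipoprotein E paralogs may have been split or dropped by the counting, which the sources used here do not describe.

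apoc1, the gene of the lipase inhibitor, made the largest change of the 4. It had 1071, 618 and 1135 at 5 dpf, 7912, 7158 and 11242 at 7 dpf, and 11584, 19922 and 16593 at 9 dpf. The 7 and 9 dpf ranges came close, with the highest library at 7 dpf 342 counts short of the lowest at 9 dpf, and the 5 dpf libraries lay far below both. The means were 942 ± 282, 8771 ± 2173 and 16033 ± 4197 (SD, n = 3 each). apoc1 rose by 4.10 (SE 0.30, limma adjusted p = 9.59e-09) at 9 against 5 dpf and by 3.24, or 9.45-fold (adjusted p = 1.18e-06), at 7 against 5 dpf. At 9 against 7 dpf its estimate was 0.86, or 1.82-fold, which did not pass (adjusted p = 0.150).

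Whether the fold change of apoc1 was smaller in the later step was itself tested. This concerns fold changes and not counts gained, since the mean went from 942 at 5 dpf to 8771 at 7 dpf and 16033 at 9 dpf. Its change from 7 to 9 dpf minus its change from 5 to 7 dpf was -2.38 on the log2 scale (SE 0.53, limma adjusted p = 0.0267). apoc1 was 1 of 88 genes, 0.362% of all tested, that passed with a negative difference. Genes that rose and then fell can also have a negative difference, so this is not the share of genes with a smaller later rise. The values of apoc1 without any 1 library ran from -2.64 to -1.99, all negative. The call was lost without library 1 at 7 dpf (adjusted p = 0.154), library 3 at 7 dpf (0.135), library 1 at 9 dpf (0.0568) or library 3 at 9 dpf (0.0502). For apoea the same difference was -0.73 (adjusted p = 0.814).

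apoc2, the gene of the lipase cofactor, made the smallest change of the 4. It had 4540, 2592 and 4059 at 5 dpf, 7321, 5287 and 7239 at 7 dpf, and 10240, 14723 and 10659 at 9 dpf. The ages did not overlap, and library 2 at 9 dpf stood above the other libraries of its age. The means were 3730 ± 1015, 6616 ± 1152 and 11874 ± 2476 (SD, n = 3 each). apoc2 rose by 1.69 (SE 0.29, limma adjusted p = 0.000440) at 9 against 5 dpf. Its estimates were 0.85, or 1.80-fold, at 7 against 5 dpf (adjusted p = 0.111) and 0.84, or 1.79-fold, at 9 against 7 dpf (adjusted p = 0.147), and neither passed. The difference between these steps was -0.01 with a 95% interval from -1.07 to 1.04, so steps that differ by up to about 1 log2 unit either way remain possible.

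At 7 against 5 dpf, then, apoea, apoeb and apoc1 passed and apoc2 did not, against a background of 2.63% of genes that passed with a higher value at 7 dpf. All 4 genes had every 7 dpf library above every 5 dpf library, as had 11.9% of all genes. At 9 against 7 dpf none of the 4 passed in limma, where 1.50% of genes passed with a higher value at 9 dpf. Their unadjusted p-values, from 0.00908 for apoc2 to 0.0248 for apoea, were all under 0.05 in limma. DESeq2 on the recovered reads called all 4 higher at 9 than at 7 dpf, with log2 changes of 0.80 for apoea, 0.81 for apoeb, 0.87 for apoc1 and 0.84 for apoc2, while edgeR called none. The 4 genes had every 9 dpf library above every 7 dpf library, as had 11.5% of all genes.

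**Figure D2:**
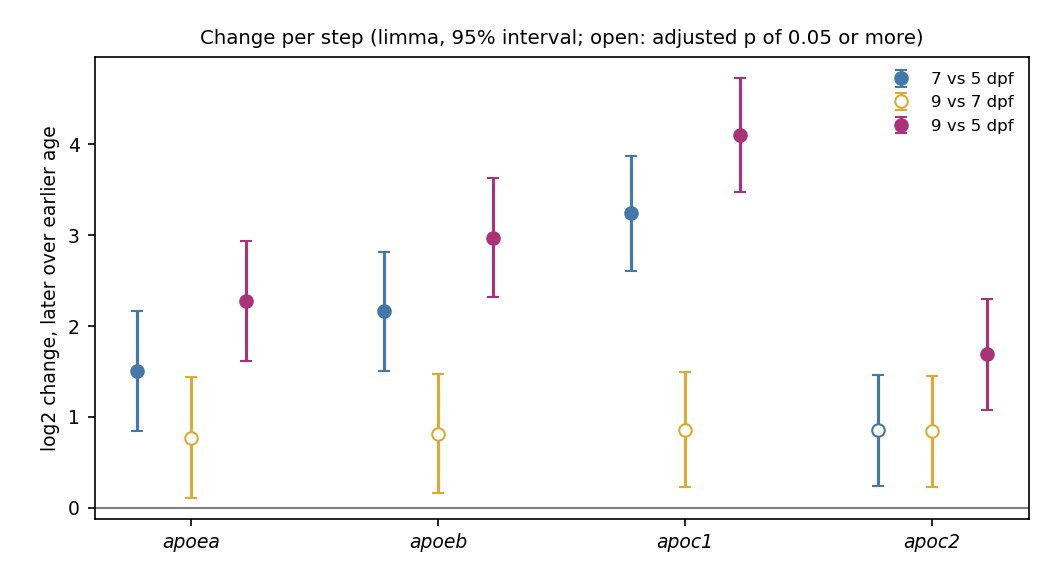
log2 change of each gene, later over earlier age (vertical), for 7 against 5, 9 against 7 and 9 against 5 dpf. Points are limma estimates, bars their 95% intervals, and open points did not pass; the changes at 7 against 5 dpf run from 0.85 for apoc2 to 3.24 for apoc1, and those at 9 against 7 dpf from 0.77 to 0.86.

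Whether the genes changed by different amounts was read from the ratio of their counts within a library, which does not depend on how libraries are scaled. Since the counts are not per length, a ratio of 1 does not mean equal transcript numbers, and only its change with age is compared. The ratio of apoc1 to apoc2, inhibitor over cofactor, was 0.236, 0.239 and 0.280 in the 5 dpf libraries, 1.08, 1.35 and 1.55 at 7 dpf, and 1.13, 1.35 and 1.56 at 9 dpf. It was 5.24-fold higher at 7 dpf than at 5 dpf and 1.02-fold higher at 9 dpf than at 7 dpf. The 7 and 9 dpf libraries covered the same range, and the 5 dpf libraries all lay below it.

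The ratio within the paralog pair shifted as well. The ratio of apoea to apoeb was 1.38, 1.30 and 1.56 at 5 dpf, 0.819, 0.993 and 0.881 at 7 dpf, and 0.799, 0.915 and 0.902 at 9 dpf. All 3 ratios at 5 dpf lay above all 6 of the later libraries, which overlapped between 7 and 9 dpf. At 7 dpf the ratio was 0.634 of that at 5 dpf.

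The remaining pairs reuse the same genes and are not all independent results. They showed the same timing. apoc1 over apoea was 0.124, 0.122 and 0.136 at 5 dpf, 0.376, 0.398 and 0.505 at 7 dpf, and 0.434, 0.450 and 0.467 at 9 dpf. apoc1 over apoeb was 0.170, 0.158 and 0.212 at 5 dpf, 0.308, 0.396 and 0.445 at 7 dpf, and 0.347, 0.411 and 0.421 at 9 dpf. In both pairs apoc1 gained on the ligand gene between 5 and 7 dpf, and the later ages overlapped. apoc2 lost ground against both. apoc2 over apoea was 0.524, 0.510 and 0.485 at 5 dpf, 0.348, 0.294 and 0.325 at 7 dpf, and 0.384, 0.332 and 0.300 at 9 dpf. apoc2 over apoeb was 0.722, 0.664 and 0.758 at 5 dpf, 0.285, 0.292 and 0.286 at 7 dpf, and 0.306, 0.304 and 0.270 at 9 dpf.

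The ratio of each of the 6 pairs differed between the ages in an exact two-sided permutation test of the age labels over the 9 libraries. The 6 are not independent results, since some ratios are fixed by others. The ratio of apoc1 to apoeb, for example, follows from apoc1 over apoea and apoea over apoeb. The unadjusted p ran from 0.0179 to 0.0286, with 0.00357 the smallest that 1680 assignments allow, and the Benjamini-Hochberg value over the 6 pairs was 0.0286 for each. Between 7 and 9 dpf the ratios changed by 0.973-fold to 1.06-fold, with exact permutation p from 0.500 to 0.800. With 3 libraries against 3 that test cannot go below 0.10, and it does not show that the ratios stayed equal. The SD of the log2 ratio among the 3 libraries of an age ran up to 0.27, for apoc1 over apoeb at 7 dpf.

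**Figure D3:**
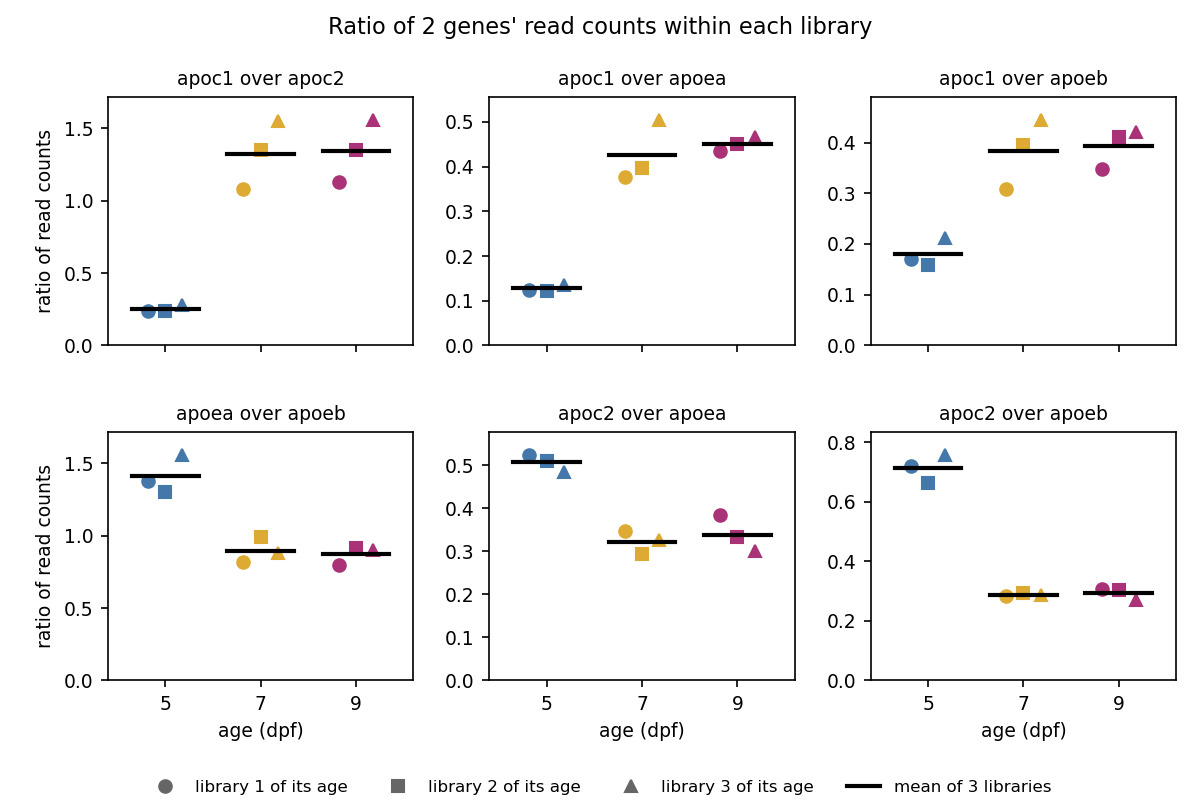
Ratio of the read counts of 2 genes within a library (vertical, linear, from 0) by age in dpf (horizontal), for the 6 pairs of the 4 genes. Points are libraries and bars are means of 3; in every panel the 5 dpf points lie apart and the 7 and 9 dpf points overlap, as for apoc1 over apoc2 with 1.08 to 1.55 at 7 dpf and 1.13 to 1.56 at 9 dpf.

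Within an age the 4 genes varied together. At 5 and 7 dpf library 2 was the lowest of its age for all 4, and at 9 dpf library 1 was the lowest and library 2 the highest for all 4. Over the 12 combinations of gene and age the coefficient of variation was 10.8% to 29.9%, and the highest library exceeded the lowest by 1.24-fold to 1.84-fold. At 5 dpf the size factor was 1.072 for the 7014333 reads of library 2 and 0.7751 for the 7438866 reads of library 1. As a share of all reads the 4 genes together held 0.187% in library 2, 0.214% in library 1 and 0.189% in library 3 at that age. What the size factors contributed to the shared spread was not tested. After the mean of each age was subtracted, the correlation of log2(value + 1) between pairs of the genes was 0.850 to 0.972 over 9 libraries that share their scaling and cell makeup, given as a description.

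The summed level of the 15 enterocyte markers was 132873, 76323 and 130876 at 5 dpf, 161397, 128103 and 193679 at 7 dpf, and 162733, 252828 and 191215 at 9 dpf. As for the 4 genes, library 2 was lowest at 5 and 7 dpf, and at 9 dpf library 1 was lowest and library 2 highest; which libraries were highest at 5 and 7 dpf differed between the genes. What the enterocyte share contributed to the change of the 4 genes was not tested directly. At 9 against 5 dpf 6 of the 15 markers rose, beside 12.6% of all genes, and none fell, although 4 fell under quantile and 2 under cyclic loess scaling. Among the markers that rose was the fatty acid binding protein gene fabp2 with a mean of 30274 ± 8850 at 9 dpf and 12053 ± 4430 at 5 dpf (SD, n = 3 each, adjusted p = 0.00938). Without library 2 at 9 dpf 3 of the markers rose, and fabp2 was not called (adjusted p = 0.0689). In pooled tissue, fewer cells of a type and less RNA per cell cannot be told apart.

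Scaling each library to its enterocyte markers, an alternative chosen after the data were seen, left all 4 genes higher at 9 than at 5 dpf. Their log2 changes were then 3.35 for apoc1, 2.22 for apoeb, 1.53 for apoea and 0.94 for apoc2, with limma adjusted p of 2.57e-08 or less. Under this scaling the median log2 change of all genes was -0.77, against -0.04 without it. Relative to the enterocyte markers all 4 genes also passed at 9 against 7 dpf, with log2 changes of 0.45 for apoea, 0.49 for apoeb, 0.54 for apoc1 and 0.52 for apoc2, and apoc2 passed at 7 against 5 dpf with 0.42 (adjusted p = 0.00398).

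Liver and macrophages also make apolipoproteins E and C, so their markers are given. The 26 measured liver markers summed to 2326, 1874 and 6415 at 5 dpf, 2971, 4573 and 2696 at 7 dpf, and 1474, 1728 and 1635 at 9 dpf. Their sum was lowest at 9 dpf and highest in library 3 at 5 dpf and library 2 at 7 dpf. What liver tissue contributed to the change of the 4 genes was not tested. None of 25 tested liver markers rose and 2 fell at 9 against 5 dpf, beside 4.28% of all genes, the complement gene c9 by 1.25 on the log2 scale and the urate oxidase gene uox by 1.64. The count of liver markers that fell was 6 under TMM scaling, 4 in edgeR, 11 in DESeq2, 10 with 2 ages alone, 2 to 10 without 1 library and 21 when scaled to the enterocyte markers, and no alternative had one that rose. The 21 macrophage and microglia markers summed to 20594, 15797 and 23093 at 5 dpf, 37558, 29735 and 39878 at 7 dpf, and 24375, 40195 and 42043 at 9 dpf.

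Most of that macrophage sum was lgmn, a lysosomal protease gene not limited to macrophages, with means of 17871 at 5 dpf, 33399 at 7 dpf and 32595 at 9 dpf. The defining marker mpeg1.1 was at 27.5 ± 3.49, 34.5 ± 7.52 and 56.8 ± 12 normalized read counts (SD, n = 3 each), so it was detected at every age and at 0 in none. At 9 against 5 dpf 2 of 20 tested macrophage markers rose, a share below the 12.6% of all genes, mpeg1.1 by 2.01-fold (adjusted p = 0.00963) and the amino acid transporter gene slc7a7 by 1.79-fold (adjusted p = 0.0242), and none rose without library 2 at 9 dpf or when scaled to the enterocyte markers. The call of slc7a7 was also lost without library 1 or 2 at 5 dpf or library 3 at 9 dpf. What macrophages contributed to the change of the 4 genes was not tested. Of 16 markers of exocrine pancreas none passed, but 7 rose without library 3 at 5 dpf and 1 without library 3 at 7 dpf. Of 13 markers of epidermis and fin fold 2 fell and of 10 markers of vascular endothelium 1 fell, beside 4.28% of all genes. For these lists in turn, enterocyte scaling gave 8 and 9, and the other alternatives gave 1 to 3 and 0 to 6.

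As a share of all reads in named genes the 4 genes grew steadily. They held 0.214%, 0.187% and 0.189% at 5 dpf, 0.596%, 0.536% and 0.544% at 7 dpf, and 0.809%, 0.906% and 0.890% at 9 dpf. The exact 95% binomial intervals stayed within 0.1833% to 0.2176%, 0.5310% to 0.6002% and 0.8037% to 0.9110% for those ages and cover counting error only. Of the reads in 15 genes of apolipoproteins A, B, C and E, the 4 held 5.09% to 5.88% at 5 dpf, 8.11% to 10.1% at 7 dpf and 10.8% to 11.4% at 9 dpf, with no overlap between ages. That pool was made up mostly of apobb.1, an apolipoprotein B gene, which alone took 2.77% to 3.08% of all reads at 5 dpf and 5.24% to 5.35% at 9 dpf. In normalized read counts its limma call at 9 against 5 dpf was kept in 12 of 20 alternatives. Under quantile scaling its log2 change was 0.29 (limma adjusted p = 0.413).

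By gene order in the RefSeq assembly GRCz12tu, apoeb, apoc1 and apoc2 lie in 1 cluster, in the order apoa4b.1, apoa4b.3, apoa4b.2, apoeb, apoc1, apoc4, apoa2 and apoc2 among apolipoprotein genes. apoea lies elsewhere, beside apoa4a. The genes of the cluster did not change alike. apoa4b.2 rose by 2.12 on the log2 scale at 9 against 5 dpf (limma adjusted p = 0.000156) and apoa4b.3 by 2.11 (adjusted p = 9.07e-06), while apoa4b.1 had an estimate of 0.95 that passed in DESeq2 (adjusted p = 0.0120) but not in limma (adjusted p = 0.0739). These are copies of apolipoprotein A-IV, a gut protein that in mammals responds to dietary fat, and reads may be shared among them.

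apoc4, which stands directly beside apoc1, had 13, 13 and 11 normalized read counts at 5 dpf, 12, 12 and 7 at 7 dpf, and 10, 7 and 6 at 9 dpf. It stayed near the filter of 10, with an estimate of -0.63 at 9 against 5 dpf that did not pass (adjusted p = 0.292), next to a gene that rose 17.2-fold. apoa2, between apoc4 and apoc2, had 627, 453 and 2118 at 5 dpf, 1848, 3085 and 1777 at 7 dpf, and 1994, 3403 and 2607 at 9 dpf. Its 7 and 9 dpf values overlapped. Its 5 and 9 dpf values overlapped through library 3 at 5 dpf, the library with the highest liver marker sum. Its change of 1.62 at 9 against 5 dpf did not pass (limma adjusted p = 0.0634). Without library 3 at 5 dpf the change of apoa2 was 2.29 (adjusted p = 2.54e-05). What liver tissue contributed to apoa2 was not tested.

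Genes on both sides of the cluster did not pass in limma, and neither did apoa4b.1, si:dkey-7f3.14, apoc4 and apoa2 within it. Of the 24298 genes tested 4094 passed at 9 against 5 dpf. gtpbp10 on one side and bcam, rps19 and cadm4 on the other had log2 changes between -0.31 and 0.42 at 9 against 5 dpf. Around apoea the neighbours were mixed. tomm40l, a paralog of the mitochondrial import gene tomm40, rose by 1.41 (adjusted p = 4.70e-05), psmd4a, of the proteasome, had 138 ± 27.6 at 9 dpf and 60.8 ± 8.34 at 5 dpf (SD, n = 3 each, adjusted p = 0.000652), and slc9a3.2, a sodium and proton exchanger gene, fell by 2.06 (adjusted p = 6.97e-07). psmd4a was not called when scaled to the enterocyte markers (adjusted p = 0.208). apoa4a had an estimate of 0.65 that passed in edgeR and DESeq2 (adjusted p = 0.0462 and 0.0277) but not in limma (adjusted p = 0.0608). In that assembly the span of apoea overlaps that of si:dkey-3n22.9, which had 46 to 89 normalized read counts. The span of apoc1 overlaps that of a long noncoding RNA. Whether exons overlap was not examined, and no strand setting is given, so some reads of such genes may have been shared.

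**Figure D4:**
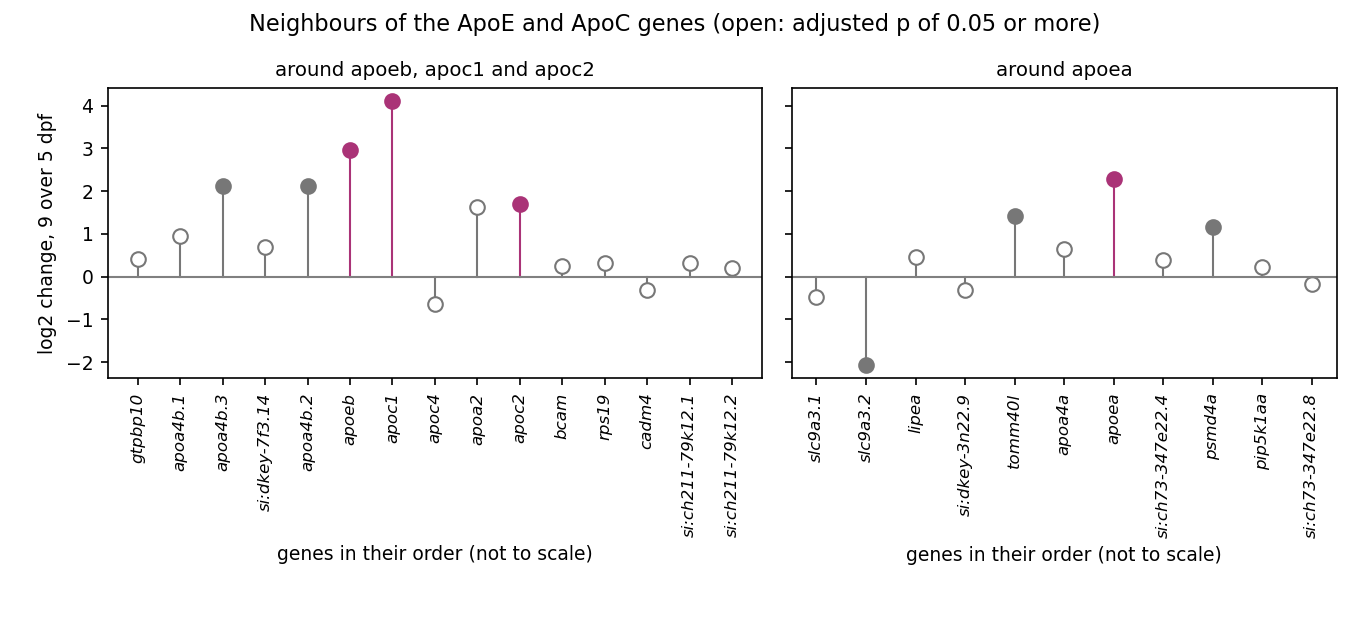
log2 change at 9 over 5 dpf (vertical) of genes in their RefSeq order around apoeb, apoc1 and apoc2 (left) and around apoea (right). Purple points are the ApoE and ApoC genes, grey points their neighbours, and open points did not pass; apoc4 at -0.63 stands between apoc1 at 4.10 and apoc2 at 1.69.

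For each of the 4, the genes with the most similar profile over the 9 libraries were found by Pearson's r of log2(value + 1). The candidates were 9478 named genes with a mean of 100 or more, with the 4 genes themselves left out. These r values are descriptions over 9 libraries that fall into 3 ages. For apoc1 they were slc13a1, a sulphate transporter gene, with r = 0.998, then apoa1a, apoa4b.3, TSTD1 and apoa4b.2. slc13a1 averaged 311 ± 43.6, 1759 ± 352 and 2959 ± 503 at 5, 7 and 9 dpf (SD, n = 3 each), and apoa1a, of the main protein of high density lipoprotein, 10402 ± 2584, 67946 ± 13668 and 95849 ± 24475. For apoeb they were apoa4b.3 with r = 0.997, the sterol exporter gene abcg5, apoa4b.2, slc13a1 and nars.

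The lists for apoea and apoc2 held different names. For apoea they were retsat, the gene of retinol saturase, with r = 0.997, then p4hb, bcap31, psmc1b and calr3a. retsat averaged 974 ± 266, 2201 ± 273 and 3479 ± 633 (SD, n = 3 each). For apoc2 they were stx12, a syntaxin gene, with r = 0.996, then mogs, tprb, stip1 and nucb1, and stx12 averaged 341 ± 74.4, 537 ± 93.3 and 910 ± 174. apoc1 and apoeb shared slc13a1, apoa4b.2 and apoa4b.3 among their 5, while apoea and apoc2 shared no name with any other member.

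Genes of the enzymes and partners that act on these proteins were read from lists. Among 16 tested genes of lipases and lipid transfer, 3 rose and none fell at 9 against 5 dpf, beside 12.6% of all genes that passed with a higher and 4.28% with a lower value, and the list's median log2 change was -0.13 against -0.04 for all genes. The 3 were angptl4, an inhibitor of lipoprotein lipase, by 1.73-fold (adjusted p = 0.0143), the gastric lipase gene lipf by 1.72-fold (adjusted p = 0.0261) and sel1l, needed in mammals for the lipase to leave the endoplasmic reticulum, by 1.61-fold (adjusted p = 0.0333). None of the 3 passed without library 2 at 9 dpf or when scaled to the enterocyte markers, where 8 genes of the list fell. Calls were also lost for lipf without library 2 at 5 dpf or 3 at 9 dpf, for angptl4 without library 3 at 5 dpf and under quantile (log2 0.37, adjusted p = 0.128) and cyclic loess scaling (0.34, 0.164), and for sel1l without library 1 or 2 at 5 dpf, 1 at 7 dpf or 3 at 9 dpf.

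lpl itself, the gene of the lipase that apolipoprotein C-II activates, was highest at 7 dpf, and it is named after its values were seen. It averaged 270 ± 13, 591 ± 91.9 and 303 ± 126 at 5, 7 and 9 dpf (SD, n = 3 each). lpl rose at 7 against 5 dpf by 1.12 (limma adjusted p = 0.0105) and fell at 9 against 7 dpf by 1.05 (adjusted p = 0.0300), where 0.383% of all genes passed with a lower value at 9 dpf. lcat, which esterifies cholesterol on lipoproteins, did the same with 47.0 ± 7.22, 94.1 ± 21.2 and 46.1 ± 10.9 (adjusted p = 0.0190 and 0.0280). So did abca1a, a gene of cholesterol export to apolipoproteins, with 708 ± 139, 1802 ± 483 and 728 ± 104 (adjusted p = 0.00195 and 0.00666). The fall of lpl was not called when library 1, 2 or 3 at 7 dpf or library 1 or 2 at 9 dpf was left out, with adjusted p of 0.0533 to 0.117. The fall of lcat was lost without library 2 or 3 at 7 dpf or 2 or 3 at 9 dpf (0.0507 to 0.188), and its rise without library 1 or 2 at 5 dpf or 3 at 7 dpf (0.0626 to 0.0897). Scaled to the enterocyte markers, the rises of lpl (adjusted p = 0.0865) and lcat (0.375) did not pass, while both steps of abca1a passed under all alternatives.

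Of 26 receptor and uptake genes 7 rose and 1 fell at 9 against 5 dpf, beside 12.6% and 4.28% of all genes, and the median was -0.23. The balance depended on the scaling: 5 fell under TMM scaling and in edgeR, 4 in DESeq2 and 8 under quantile and cyclic loess scaling, and 15 fell and 4 rose when scaled to the enterocyte markers. The largest was scarb1, the receptor of high density lipoprotein, at 5453 ± 907 at 9 dpf against 1092 ± 402 at 5 dpf, 5.19-fold higher (adjusted p = 6.58e-06). The ubiquitin ligase genes mylipb and mylipa, whose mammalian counterpart marks LDL receptors for breakdown, rose by 2.53-fold (adjusted p = 4.52e-05) and 2.41-fold (adjusted p = 0.000333). The fatty acid receptor gene cd36 rose by 2.49-fold (adjusted p = 0.00335). ldlra, named after its values were seen, encodes a receptor that binds apolipoprotein E and rose by 1.75-fold (adjusted p = 0.0354). The member that fell was ldlrap1a, an adaptor of LDL receptor uptake, at 35.0 ± 6.05 at 9 dpf and 58.4 ± 5.57 at 5 dpf (adjusted p = 0.0286). Without library 2 at 9 dpf 4 receptor genes rose and none fell. ldlra and ldlrap1a both lost their call without library 2 at 5 dpf or library 2 or 3 at 9 dpf, ldlra also without library 1 at 7 dpf and ldlrap1a without library 1 at 5 dpf. Under quantile scaling neither passed (log2 0.34, adjusted p = 0.0519, and -0.57, 0.0641), under cyclic loess scaling ldlrap1a did not (-0.53, 0.0836), and scaled to the enterocyte markers ldlra had a log2 change of 0.06 (adjusted p = 0.676).

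Of 33 genes of transcription factors that act on apolipoprotein genes in mammals or fish, 6 rose and 1 fell at 9 against 5 dpf, beside 12.6% and 4.28% of all genes, with a median of 0.28. Under TMM, quantile and cyclic loess scaling and in edgeR 3 or 4 fell, and scaled to the enterocyte markers 2 rose and 17 fell. nr0b2a, a nuclear receptor induced by bile acids in mammals, rose by 11.5-fold (adjusted p = 0.000442), with means of 359 ± 148, 5236 ± 2686 and 4211 ± 1848 at 5, 7 and 9 dpf. hnf4b, listed as CABZ01057488.2, rose by 2.31-fold (adjusted p = 0.000534) and creb3l3l by 1.92-fold (adjusted p = 0.00970). hnf4b is a nuclear receptor of liver and gut, and creb3l3l is related to a mammalian activator of apolipoprotein genes. The retinoid receptor gene rxraa fell by 0.84 on the log2 scale (adjusted p = 0.0130). Without library 2 at 9 dpf 3 of these genes rose. creb3l3l was not called without library 2 or 3 at 9 dpf or when scaled to the enterocyte markers, and rxraa without library 1 at 5 dpf or 3 at 9 dpf.

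Of 22 other tested genes of apolipoproteins and particle assembly 8 rose and 2 fell at 9 against 5 dpf, beside 12.6% and 4.28% of all genes, and the list's median was 0.80 beside -0.04 for all genes. The largest rise was that of apoba, an apolipoprotein B gene, with log2 5.34, and apoa1a followed with 3.21 (limma adjusted p = 5.30e-10 and 2.37e-06). The apoa1a paralog apoa1b fell by 1.47 (adjusted p = 0.0356), a call lost without library 1 or 3 at 5 dpf or 1 or 3 at 9 dpf. apoba rose at both steps, by 2.49 at 7 against 5 dpf and by 2.85 at 9 against 7 dpf (limma adjusted p = 8.82e-05 and 3.54e-05). None of the 4 ApoE and ApoC genes passed at the later step in limma on the normalized read counts. All 4 passed there in DESeq2 and under quantile, cyclic loess and enterocyte scaling. Whether apoba differed from the 4 genes was not tested. Of 11 genes of sterol export 2 rose at 9 against 5 dpf, beside 12.6% of all genes. They were abcg5 and abcg8, which together form the exporter of sterols into the gut lumen. They rose by 5.43-fold and 4.86-fold (limma adjusted p = 2.37e-07 and 1.19e-06), and both rose under all alternatives. No other gene of that list passed, but 3 fell under quantile and cyclic loess scaling and 6 when scaled to the enterocyte markers.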

How the data were processed

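RNA was measured in 9 libraries, 3 per age. The deposited values are a signal: per the file headers and values, the authors divided read counts per gene by 1 size factor per library. The submitters' processing notes name STAR 2.5.2b as aligner, GRCz10 as genome build and DESeq2 1.16.1; the counter and its strand setting are not given in the sources used here. Undoing this division turned 100% of values into whole reads at a relative tolerance of 1e-06, and 0% of reads lay outside named genes. Of 30263 identifiers 26065 matched the table of gene names. Symbols are those of the deposited table.

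The 24298 genes that reached 10 in 3 or more libraries were tested with limma 3.58.1 in R 4.3.3 (mean-variance trend, robust variances, pseudocount 1). The fit was checked on simulated data with known changes, in which genes varied independently. Beyond read depth, spread shared by the genes of a library was not simulated, so its effect on the calls was not checked. Ratios within libraries were tested by exact permutation, with every assignment of the age labels enumerated in numpy 2.4.6. Binomial intervals came from scipy 1.17.1. edgeR 4.0.16 and DESeq2 1.42.0 on the recovered reads, other scalings, pseudocounts, no filter, a replicate block, 2 ages alone and leaving out each library were alternatives; scaling to enterocyte markers was added after seeing the data.

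The 4 genes and all gene lists were chosen with earlier results of these data known. Named genes were the 4, the 5 most similar to each, the up to 4 largest changes that passed at 9 against 5 dpf in each list, and neighbours and markers. lpl, lcat, abca1a, ldlra, ldlrap1a, rxraa, apoa1b and apobb.1 were named after their values were seen. Histone peak lists were not analysed here. 1 gene that this rule names is not reported here.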

Additional observations from a re-analysis of the deposited data

Results flagged for a closer look

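The difference between the steps of apoc1 stood out, since its effects over the same interval of age differed in a test of that difference. The change at 9 against 7 dpf minus the change at 7 against 5 dpf was -2.38 on the log2 scale (SE 0.53, limma adjusted p = 0.0267). Both steps share the 7 dpf libraries. The smaller later step, in log2 change and not in counts gained, was seen in all 9 fits without 1 library, although 4 of those fits did not pass.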

How the results depend on the processing

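Of 448 alternative values for the 4 genes, their ratios and the counts of genes passing, 388 were scored as the same. So were 351 of 440 list counts and 898 of 979 values of other named genes. Counts had to stay within 1.5 times, and other values had to keep their side of the threshold. For changes from the fits, a turn of direction was scored only where at least 1 of the 2 values passed. Values that passed in neither fit could therefore change sign and be scored as the same. The difference of steps of apoc2, for example, ran from -0.32 to 0.38. The rises of all 4 genes at 9 against 5 dpf held under all 20 alternatives, from 1.53 to 2.47 for apoea, 2.22 to 3.13 for apoeb, 3.35 to 4.32 for apoc1 and 0.94 to 1.85 for apoc2 (log2). Calls gained were these. Under quantile scaling they were 0.37 for apoc2 at 7 against 5 dpf, 0.66, 0.76, 0.76 and 0.75 for apoea, apoeb, apoc1 and apoc2 at 9 against 7 dpf, and -0.92 for the difference of steps of apoeb. Under cyclic loess they were 0.40, then 0.72, 0.76, 0.75 and 0.74, and -0.89, and under DESeq2 0.81, then 0.80, 0.81, 0.87 and 0.84, and -1.33, in the same order. Scaled to the enterocyte markers they were 0.42, then 0.45, 0.49, 0.54 and 0.52, with differences of steps of -0.62 for apoea and -1.23 for apoeb. The causes were not tested.

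Genes that passed numbered 4094 at 9 against 5 dpf, 985 at 7 against 5 and 458 at 9 against 7. At 7 against 5 dpf they became 2275 under quantile and 2089 under cyclic loess scaling, and at 9 against 7 dpf 1552, 2044, 790 in edgeR, 859 in DESeq2 and 843 with 2 ages alone. Scaled to the enterocyte markers they were 10387, 1791 and 1178. Leaving out 1 library gave 1818 to 4724, 315 to 1528 and 101 to 998, values of 1.26 to 1.64 for apoea at 7 against 5 dpf, 0.67 to 0.94 for apoc2 at 9 against 7 dpf (called only without library 2 at 5 dpf, adjusted p = 0.0482) and -2.64 to -1.99 for the difference of steps of apoc1. Among other genes, abca1a at 9 against 5 dpf turned to -0.37 under quantile, -0.41 under cyclic loess and -0.70 under enterocyte scaling, which also turned lpl to -0.68 and sel1l to -0.06.

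With the replicate number as a replicate block, genes passing at 9 against 7 dpf numbered 790, and the 6 ratios, unchanged at -0.70, 2.41, 1.83, 1.13, -0.59 and -1.28, had an adjusted permutation p of 0.0833. apoa1b lost its call under the block (-1.47, adjusted p = 0.0646), and 2 pancreas markers rose. The numbers are not known to pair the pools: same-numbered libraries correlated by -0.42 to 0.47 after age means were subtracted, and 2 of 9 libraries correlated best with their own number. The planned description of histone peaks at the 4 genes and its alternatives were not run, since no annotation on GRCz10 was used here. Counting error is small at 663 reads or more, and 3 pools per age limit the precision.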
